A study of Mus musculus with 24 samples.

Results

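The interferon response genes described here are 37 mouse genes whose RNA rises when a cell senses interferon. They were taken by symbol from the gene table of a study of the mouse kidney and kept where their mean normalized count over all libraries was at least 10. All 37 listed genes were in the table and passed, among 17333 genes that did so out of 56748 gene identifiers. RNA came from whole kidneys of male and female mice taken midway through the active or the inactive period of the day, in 4 groups of 6 libraries, namely active males, active females, inactive males and inactive females. The labels give no strain, age, genotype or agent for any group. Separate animals are not stated for the libraries, so p-values measure only the spread between these libraries, which may be partly technical. The questions were whether these genes differ between males and females in each period, and between the periods in each sex.

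Interferons are secreted proteins that warn cells of infection. Type I interferons act through Stat2 and Irf9, which with a partner bind an element in promoters called the interferon-stimulated response element. Interferon gamma acts through a different element, the gamma-activated site, and through Irf1. The induced proteins sense foreign RNA, block viral replication or attack the membranes around intracellular microbes. Many of these genes are also transcribed at a lower level in healthy tissue, the kidney included.

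Promoters of members with the smallest p in any comparison are shown, since the members are known as a group for a shared promoter element. RefSeq promoters of build GRCm38.p6, running from 250 bases before to 50 bases after the start of the gene, were held for 25 of the 37 members. The core of the interferon-stimulated response element, which is GAAA, 2 bases of any kind and GAAA again, or TTTC, 2 bases and TTTC on the other strand, stands in capitals. The promoters of Gbp7 (chr3:142530086-142530385, plus strand), Gbp3 (chr3:142559794-142560093, plus strand, the first of the promoters listed for it) and Rsad2 (chr12:26456403-26456702, minus strand) hold it. The promoter of Ifi44 (chr3:151749861-151750160, minus strand) holds no match in this window. All are written in the direction of the gene.
Gbp7: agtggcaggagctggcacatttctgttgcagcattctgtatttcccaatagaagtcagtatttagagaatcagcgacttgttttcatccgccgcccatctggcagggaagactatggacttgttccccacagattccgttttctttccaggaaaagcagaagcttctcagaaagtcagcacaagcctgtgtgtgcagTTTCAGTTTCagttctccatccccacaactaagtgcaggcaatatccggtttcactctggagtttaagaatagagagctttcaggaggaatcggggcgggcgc
Gbp3: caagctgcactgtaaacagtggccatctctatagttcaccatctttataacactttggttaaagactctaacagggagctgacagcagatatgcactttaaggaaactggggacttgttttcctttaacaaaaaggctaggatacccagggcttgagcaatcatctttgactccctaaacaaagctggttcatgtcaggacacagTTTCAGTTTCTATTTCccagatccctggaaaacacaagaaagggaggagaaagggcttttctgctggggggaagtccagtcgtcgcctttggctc
Rsad2: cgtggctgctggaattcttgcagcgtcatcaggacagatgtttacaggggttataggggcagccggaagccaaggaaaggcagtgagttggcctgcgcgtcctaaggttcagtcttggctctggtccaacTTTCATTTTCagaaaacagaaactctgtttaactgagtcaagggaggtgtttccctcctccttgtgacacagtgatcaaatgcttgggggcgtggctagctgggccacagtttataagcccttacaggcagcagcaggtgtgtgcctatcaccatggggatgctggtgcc
Ifi44: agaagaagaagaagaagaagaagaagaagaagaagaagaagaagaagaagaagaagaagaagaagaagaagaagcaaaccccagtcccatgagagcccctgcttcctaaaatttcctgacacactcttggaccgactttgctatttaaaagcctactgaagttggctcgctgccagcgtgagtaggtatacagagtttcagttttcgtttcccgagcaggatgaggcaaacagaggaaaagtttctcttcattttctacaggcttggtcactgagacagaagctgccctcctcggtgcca

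The first base of the core lay 53 bases before the start of Gbp7 and 120 bases before that of Rsad2. The promoter shown for Gbp3 holds 2 overlapping cores, at 45 and 39 bases before its start, and its other listed promoter holds none. A gene was counted if any of its promoters matched. Over all members with an entry, 16 of 25 (64.0%) held the core, against 3.99% of the 27025 mouse genes with a RefSeq promoter and 3.88% of the 12096 tested genes with one. Counted by promoter, 17 of 30 (56.7%) held it, against 3.44% of 32851. The gamma-activated site, TTCNNNGAA on either strand, stood in 8 of 25 members (32%), against 9.55% of all genes and 8.46% of the tested ones. The motifs overlapped each other in 1 of 30 member promoters, that of Bst2. A match describes the letters only, and no binding was measured. Gbp9 and Parp14 are named below without a sequence.

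The deposited values are normalized counts, that is, reads per gene divided by a factor per library, and levels below are in this unit. Libraries held 31.04 to 39.3 M reads assigned to genes, as recovered from these values. The sexes differed widely across the transcriptome, with 60.6% of tested genes called in either direction in the active period and 55.7% in the inactive one. The first principal component parted the sexes and the next parted the periods. Because normalized totals were 35.97 to 39.5 M in male libraries and 29.6 to 32.4 M in female ones, the choice of scaling moves every comparison of the sexes. Scaling all libraries to equal totals shifted the log2 folds of all genes, male over female, by a median of -0.27 in the active period. In the inactive period the median shift was -0.28. The median log2 folds as deposited were -0.05 and -0.04. Markers of the proximal tubule, the most abundant segment of the kidney, summed to 157637 to 259139.6 normalized counts over all libraries.

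Most interferon response genes were lower in male than in female kidneys, and this held in both periods. A gene was called where its adjusted p in limma was under 0.05 over all tested genes. In the active period 28 of 37 members were lower in males, 2 were higher and 7 did not pass, where 30.5% of all tested genes were lower and 30.1% higher. In the inactive period 30 of 37 were lower and 7 did not pass, with a background of 27.8% lower and 27.9% higher. The members were chosen with earlier results of these data known, so these counts are not an independent test of the list. No member was higher in males in the inactive period by limma, by edgeR or by DESeq2, and none was higher at an unadjusted p under 0.05. The median log2 fold of the members, male over female, was -0.49 in the active period against -0.05 over all genes, and -0.64 in the inactive period against -0.04. In whole tissue, fewer cells of a type and less RNA per cell cannot be told apart.

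The comparisons of the sexes in the active and in the inactive period use different libraries. The sign of the log2 fold was the same in both for all 37 members. It was negative in both for 35 members, and 25 members were called lower in both, which is 89.3% of the 28 and 83.3% of the 30. Of the 35, only Igtp and Oasl1 were called in neither period. In the active period 22 of 37 members had every male library below every female library, a share above the 16.1% of all tested genes. In the inactive period 13 of 37 did, a share above the 13.7% of all tested genes. No member had every male library above every female library in either period, where 20.2% and 18.6% of genes did.

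**Figure D1:**
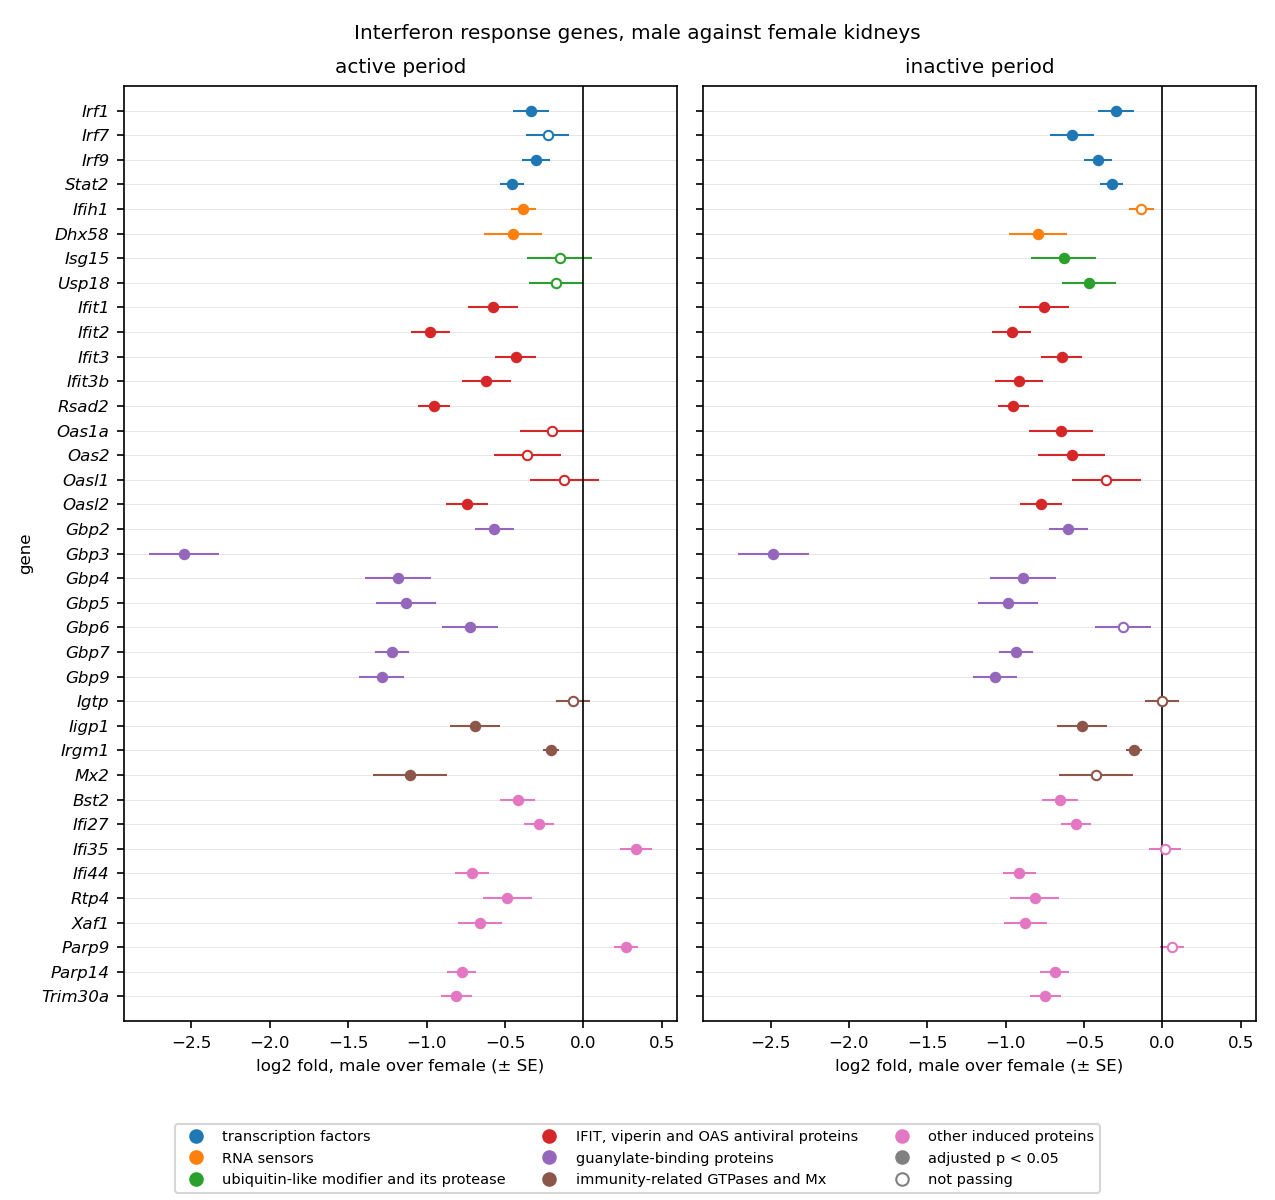
Log2 fold of each of the 37 interferon response genes, male over female, with bars of ± SE, in the active period (left) and the inactive period (right), coloured by role. Filled points passed an adjusted p of 0.05 and open points did not. Gbp3 lies farthest to the left in both panels, at -2.55 and -2.48, and Ifi35 and Parp9 are the points right of the zero line.

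The guanylate-binding proteins, large GTPases that coat and break open the vacuoles of intracellular microbes, differed most as a group. All 7 were lower in males in the active period, with a median log2 fold of -1.18, and 6 of 7 in the inactive period, with a median of -0.93. Gbp3 (ENSMUSG00000028268) ran from 294 to 508 normalized counts in active males with a median of 396, against 1319 to 3408 with a median of 2509.9 in active females. In the inactive period its levels ran from 313 to 595 with a median of 443 in males, against 1649 to 3298 with a median of 2679.6 in females. Every male library lay below every female library in both periods. The log2 fold of Gbp3 was -2.55 ± 0.22 in the active period (5.84-fold lower in males, adjusted p = 2.99e-09) and -2.48 ± 0.22 in the inactive period (5.58-fold lower, adjusted p = 5.95e-09). It remained called under every setting and with each library left out.

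Gbp7 (ENSMUSG00000040253), whose promoter is shown above, ran from 397 to 498 with a median of 434 in active males, against 739 to 1301 with a median of 1068 in active females. In inactive males it ran from 430.1 to 583 with a median of 468, against 770.0 to 1184 with a median of 911 in inactive females. The groups did not overlap in either period. Gbp7 had the smallest p among members in the active period, with a log2 fold of -1.22 ± 0.11 (adjusted p = 1.52e-10), and in the inactive period its log2 fold was -0.93 ± 0.11 (adjusted p = 3.65e-08). Gbp9 (ENSMUSG00000029298) ran from 195 to 357 with a median of 293 in active males, against 564 to 812 with a median of 672 in active females. Its groups did not overlap there either, and its log2 fold was -1.29 ± 0.14 (adjusted p = 1.33e-08), against -1.07 ± 0.14 in the inactive period (adjusted p = 4.20e-07).

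The other guanylate-binding proteins followed, with smaller folds in the active period. In the inactive period Gbp5 had a larger fold than Gbp7. Gbp4 had a log2 fold of -1.18 ± 0.21 in the active and -0.89 ± 0.21 in the inactive period. Gbp5, which also helps activate inflammasomes, had -1.13 ± 0.19 and -0.99 ± 0.19, and Gbp2 had -0.57 ± 0.12 and -0.60 ± 0.12. Gbp6 was lower in active males (log2 fold -0.72 ± 0.18, adjusted p = 9.13e-04) and did not pass in the inactive period (-0.25 ± 0.18, adjusted p = 0.234). The difference between these periods for Gbp6 was itself not called. Gbp2, Gbp3, Gbp5 and Gbp7 lie in a run of such genes on chromosome 3, and Gbp4, Gbp6 and Gbp9 in another on chromosome 5. The genes resemble one another in sequence, so reads can be split uncertainly between them, as also within the Ifit, Oas, Trim30 and immunity-related GTPase families.

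Antiviral effectors that act on RNA or on viral replication were lower in males as well, in 6 of 9 members in the active and 8 of 9 in the inactive period. Rsad2 (ENSMUSG00000020641) encodes viperin, an enzyme that makes a chain-terminating nucleotide. It ran from 1129 to 1477 normalized counts with a median of 1318 in active males, against 2187 to 2896 with a median of 2436 in active females. In inactive males it ran from 699.8 to 1075 with a median of 794, against 1376 to 1990.2 with a median of 1610.3 in inactive females. No male library reached a female library of the same period. The log2 fold of Rsad2 was -0.95 ± 0.10 in each period (adjusted p = 5.94e-09 in the active and 8.19e-09 in the inactive period).

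Ifit2, of a family that binds foreign RNA, had a log2 fold of -0.98 ± 0.13 in the active and -0.96 ± 0.13 in the inactive period. Its relatives Ifit1, Ifit3 and Ifit3b were called in both periods too, with log2 folds between -0.43 and -0.91. Among the oligoadenylate synthetase genes, whose products switch on an enzyme that degrades RNA, and their relatives, Oasl2 was called in both periods (log2 folds -0.74 ± 0.13 and -0.78 ± 0.13). Oas1a and Oas2 passed in the inactive period alone, at -0.65 ± 0.21 (adjusted p = 0.00855) and -0.58 ± 0.21 (adjusted p = 0.0223), and no difference between the periods was called for either. The call of Oas2 was lost with female inactive replicate 5, female inactive replicate 6 or male inactive replicate 5 left out (adjusted p up to 0.0541). Oasl1 passed in neither period, with log2 folds of -0.12 ± 0.22 and -0.36 ± 0.22.

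**Figure D2:**
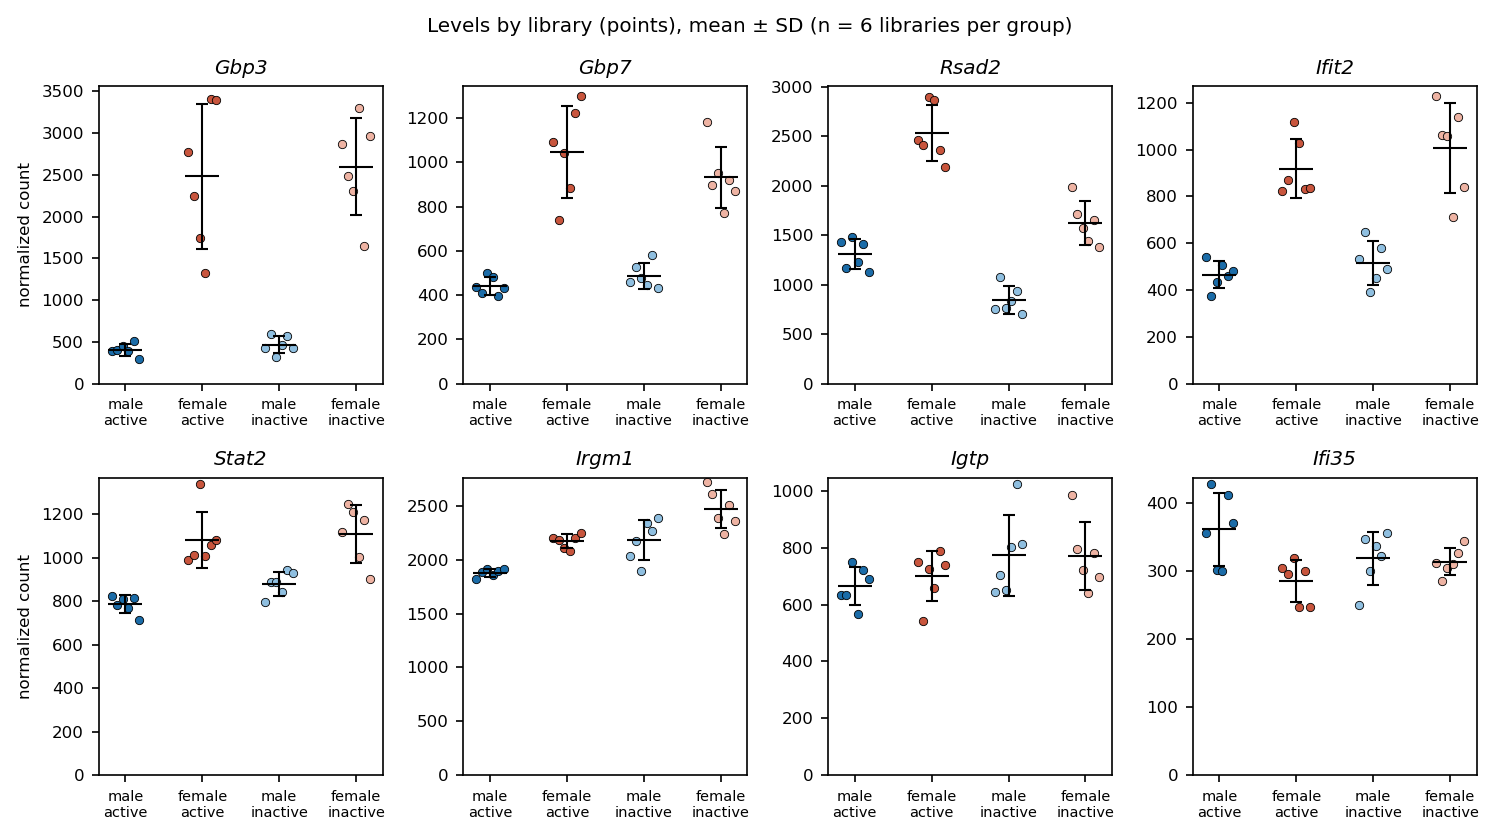
Normalized counts of 8 interferon response genes by library (points), with the mean and SD of each group of 6 as bars, in the order active males, active females, inactive males, inactive females. For Gbp3, Gbp7, Rsad2 and Ifit2 the male points sit below all female points of the same period, while the groups of Igtp overlap, and Ifi35 reaches 429 in active males against 319 in active females.

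Among the immunity-related GTPases, which act at vacuoles that hold microbes, and Mx2, a dynamin-like antiviral GTPase, the members behaved unequally. Iigp1 was lower in males in both periods (log2 folds -0.69 ± 0.16 and -0.51 ± 0.16). Irgm1, a regulator of the other immunity-related GTPases, differed by a small margin with little spread, with log2 folds of -0.21 ± 0.05 (adjusted p = 0.00116) and -0.18 ± 0.05 (adjusted p = 0.00456). Igtp was close to equal, with medians of 662 in active males and 732 in active females, and of 754 in inactive males and 754 in inactive females. Its log2 folds were -0.07 ± 0.11 and -0.00185 ± 0.11, and the groups overlapped. With equal totals Igtp was called lower in males in both periods, at -0.34 (adjusted p = 0.00949) and -0.28 (adjusted p = 0.0318). Mx2 was 2.15-fold lower in active males (log2 fold -1.10 ± 0.24, adjusted p = 1.80e-04) and did not pass in the inactive period (-0.42 ± 0.24, adjusted p = 0.130).

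Of the 9 other induced proteins, 7 were lower in males in each period. Trim30a (ENSMUSG00000030921), a member of the tripartite motif family, ran from 269 to 372 with a median of 286 in active males, against 467 to 575 with a median of 527 in active females. In inactive males it ran from 257 to 388 with a median of 334, against 436 to 634 with a median of 550.3 in inactive females. The groups did not overlap, and the log2 folds were -0.81 ± 0.10 (adjusted p = 2.96e-08) and -0.75 ± 0.10 (adjusted p = 1.67e-07). Parp14 (ENSMUSG00000034422), an ADP-ribosyltransferase, ran from 531 to 658 in active males with a median of 549, against 896 to 1124 with a median of 963 in active females. Here too each male library lay below each female one in both periods, with log2 folds of -0.78 ± 0.09 (adjusted p = 2.53e-08) and -0.69 ± 0.09 (adjusted p = 2.85e-07).

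Ifi44 (ENSMUSG00000028037), an induced cytosolic protein, ran from 426 to 766 with a median of 503 in inactive males, against 819 to 1149 with a median of 987 in inactive females. The groups were apart, and the log2 fold was -0.91 ± 0.11 (adjusted p = 2.85e-08), against -0.71 ± 0.11 in the active period (adjusted p = 1.55e-06). Xaf1, a protein linked to cell death, Rtp4, Bst2, which tethers budding virus particles to the cell surface, and Ifi27 were also called lower in both periods, with log2 folds from -0.28 for Ifi27 to -0.82 for Rtp4 and -0.87 for Xaf1.

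The exceptions were Ifi35 and Parp9, called higher in active males. Ifi35 ran from 301 to 429 with a median of 364 in active males, against 247 to 319 with a median of 298 in active females, and the groups overlapped (log2 fold 0.33 ± 0.10, adjusted p = 0.00545). Parp9, a relative of Parp14 that partners with a ubiquitin ligase, ran from 679 to 884 with a median of 764, against 573 to 756 with a median of 644 (log2 fold 0.27 ± 0.08, adjusted p = 0.00288). In the inactive period neither passed, with log2 folds of 0.02 ± 0.10 for Ifi35 and 0.06 ± 0.08 for Parp9. Their direction rests on the scaling. With equal totals the log2 fold of Parp9 was -0.00321 in the active period (adjusted p = 0.975) and that of Ifi35 was 0.06 (adjusted p = 0.618), and in the inactive period both were lower in males, at -0.22 and -0.26.

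The transcription factors and RNA sensors of the list had log2 folds between -0.13 and -0.79. Stat2, the type I interferon signal carrier, was lower in males in both periods (log2 folds -0.45 ± 0.08 and -0.33 ± 0.08), as was its partner Irf9 (-0.31 ± 0.09 and -0.41 ± 0.09). Irf1 was called in both, at -0.34 ± 0.11 (adjusted p = 0.0123) and -0.30 ± 0.11 (adjusted p = 0.0282). The inactive-period call of Irf1 was lost without female inactive replicate 1, 2 or 5, without male inactive replicate 3, 4 or 6, and with only the compared groups fitted (adjusted p from 0.0514 to 0.0854). Irf7, the factor that amplifies type I interferon production, passed in the inactive period alone (-0.58 ± 0.14, adjusted p = 7.15e-04, against -0.23 ± 0.14 and adjusted p = 0.155 in the active period).

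The RNA sensor Ifih1 was lower in active males (-0.38 ± 0.08, adjusted p = 1.20e-04) and did not pass in the inactive period (-0.13 ± 0.08, adjusted p = 0.152). The related helicase Dhx58 was called in both periods, at -0.45 ± 0.19 (adjusted p = 0.0370) and -0.79 ± 0.19 (adjusted p = 5.78e-04). Its active-period call was lost without any filter on low genes (adjusted p = 0.0779) and without female active replicate 2, 3, 4 or 5 or male active replicate 1, 2 or 3 (adjusted p up to 0.0899). Isg15, a ubiquitin-like modifier, and Usp18, the protease that removes it, passed in the inactive period alone, at -0.63 ± 0.21 (adjusted p = 0.0112) and -0.47 ± 0.17 (adjusted p = 0.0220). Usp18 lost that call without female inactive replicate 3 or 5 or male inactive replicate 5 or 6 (adjusted p up to 0.0744). For Irf7, Isg15, Usp18 and Ifih1 the difference between the periods was tested and not called.

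Levels can be set between genes only per length. Per kilobase of exon in the reference annotation, and averaged over all 24 libraries, Ifi27 had the highest level at 717 normalized counts, followed by Ifit3 at 620.5 and Gbp3 at 456. The lowest levels were those of Mx2 at 17.2, Dhx58 at 20.04 and Oasl1 at 20.1. The place of Gbp3 among the members depends on sex, at 124 per kilobase in active males and 760.1 in active females, and 142 in inactive males and 796 in inactive females.

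Other genes of the pathway, from lists that do not include the members, were counted in the same fit. The lists, like the members, were chosen with earlier results of these data known. Their counts are therefore not a separate test. Of 11 ligands and receptors 6 passed the filter, and the ligands Ifnb1, Ifng, Ifna4, Ifnk and Ifne did not. Il10rb, a receptor chain shared by interferon lambda, was lower in males in both periods (log2 folds -0.48 ± 0.07 and -0.65 ± 0.07). Ifnar2, a chain of the type I receptor, was lower too (-0.30 ± 0.08 and -0.43 ± 0.08), and its partner Ifnar1 was called in the inactive period (-0.24 ± 0.05). Ifngr2, a chain of the interferon gamma receptor, was called higher in active males (0.22 ± 0.07), a direction that equal totals turned to -0.05.

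Of 12 tested genes of nucleic acid sensing, 7 were lower and 2 higher in active males, and 8 were lower and 2 higher in inactive males. Over all tested genes, 30.5% were lower and 30.1% higher in active males, and 27.8% and 27.9% in inactive males. Ddx58, which encodes the RNA sensor RIG-I, had log2 folds of -0.69 ± 0.07 (adjusted p = 3.72e-10) and -0.62 ± 0.07 (adjusted p = 5.35e-09). Tlr7, an endosomal RNA receptor, ran from 37.6 to 68.1 normalized counts in active males, against 121 to 162 in active females, without overlap (log2 fold -1.29 ± 0.21). In the inactive period Tlr7 was called lower in males as well (-1.09 ± 0.21). Tlr3 was lower in active males (-0.50 ± 0.09), and Tmem173, the signalling adaptor STING, in inactive males (-0.71 ± 0.14). These 2 are given in the period where the naming rule picked them. For no gene of this list was a difference between the periods called.

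Among 45 tested genes of further interferon-induced effectors, 27 were lower and 4 higher in active males, and 32 were lower and 3 higher in inactive males. The shares of all tested genes given above apply to these counts as well. Samhd1, which depletes nucleotides, had log2 folds of -0.69 ± 0.07 and -0.56 ± 0.07, and Ifi203 had -0.97 ± 0.10 and -0.93 ± 0.10. Parp10 went the other way, at 0.74 ± 0.09 and 0.69 ± 0.09, and stayed called higher with equal totals, at 0.46 and 0.41. Among 10 genes of antigen processing, 4 were lower and 2 higher in active males and 5 were lower in inactive males. The active-period counts lie close to the shares of all tested genes, 30.5% lower and 30.1% higher. Nlrc5, the activator of MHC class I genes, was lower in both periods (-0.76 ± 0.13 and -0.56 ± 0.13), and the proteasome activators Psme2 and Psme1 were called higher in active males (0.35 ± 0.07 and 0.27 ± 0.07), calls that equal totals ended (0.08 and -0.00778).

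The signal transducers were called in both directions, near the shares of all genes. Of 15 tested, 4 were higher and 4 lower in active males, and 5 were higher and 3 lower in inactive males. Those shares were 30.1% higher and 30.5% lower in active males, and 27.9% and 27.8% in inactive males. Irf5, a factor that drives inflammatory cytokine genes, was higher in males in both periods (log2 folds 0.67 ± 0.11 and 0.92 ± 0.11), and stayed called higher with equal totals, at 0.40 and 0.65. Irf3 was called higher in both periods (0.46 ± 0.06 and 0.28 ± 0.06), and equal totals ended the inactive-period call (-0.00440).

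Markers of several cell types were also lower in males. Of all tested genes, 30.5% were lower and 30.1% higher in active males, and 27.8% were lower and 27.9% higher in inactive males. All of the listed markers were above 0 in some library. Markers of endothelium summed to 12168 to 14605 normalized counts with a median of 12602 in active males, against 17339 to 22553 with a median of 19460 in active females, and to 8392 to 13540 with a median of 10067 in inactive males, against 14158 to 19867 with a median of 19072 in inactive females. Of 8 such markers 7 were lower in active males and 8 in inactive males. Markers shared by all leukocytes had medians of 1199.6 in active males and 1709 in active females, and of 1160.1 in inactive males and 1553 in inactive females, with 1 and 2 of 5 called lower.

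Of 10 macrophage markers, 3 were lower and 1 higher in active males and 8 were lower in inactive males. Their sum ran from 3415 to 5120 in active males against 3635 to 4539 in active females, and from 3175 to 4113 in inactive males against 3699.5 to 4947 in inactive females. Markers of T and NK cells, 8 tested of 10, were lower for 5 and 3, with sums of 159 to 240 in active males against 227 to 387 in active females, and of 115 to 215 in inactive males against 209 to 356 in inactive females. Of 8 dendritic cell markers, a list that includes the member Bst2, 5 were lower in each period, with sums of 1525 to 1948.5 in active males against 2261 to 2765 in active females, and of 1572 to 1919 in inactive males against 2277 to 3026 in inactive females.

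Fibroblast and pericyte markers were lower in males for 4 and 5 of 5, with sums of 4961 to 5799 in active males against 6734 to 8783 in active females, and of 3453 to 5942 in inactive males against 6094 to 8704 in inactive females. Podocyte markers were lower for 4 of 4 in each period, with sums of 7634 to 9133 in active males against 14548 to 15793 in active females. Distal nephron and collecting duct markers were lower for 5 and 4 of 6, with 1 higher in active males, and 2 of 5 proximal tubule markers were higher and 3 lower in each period. Of 5 B and plasma cell markers 1 was lower, in inactive males, and the 1 neutrophil marker tested did not pass. The part of these cell types in the lower levels of the interferon response genes was not tested.

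**Figure D3:**
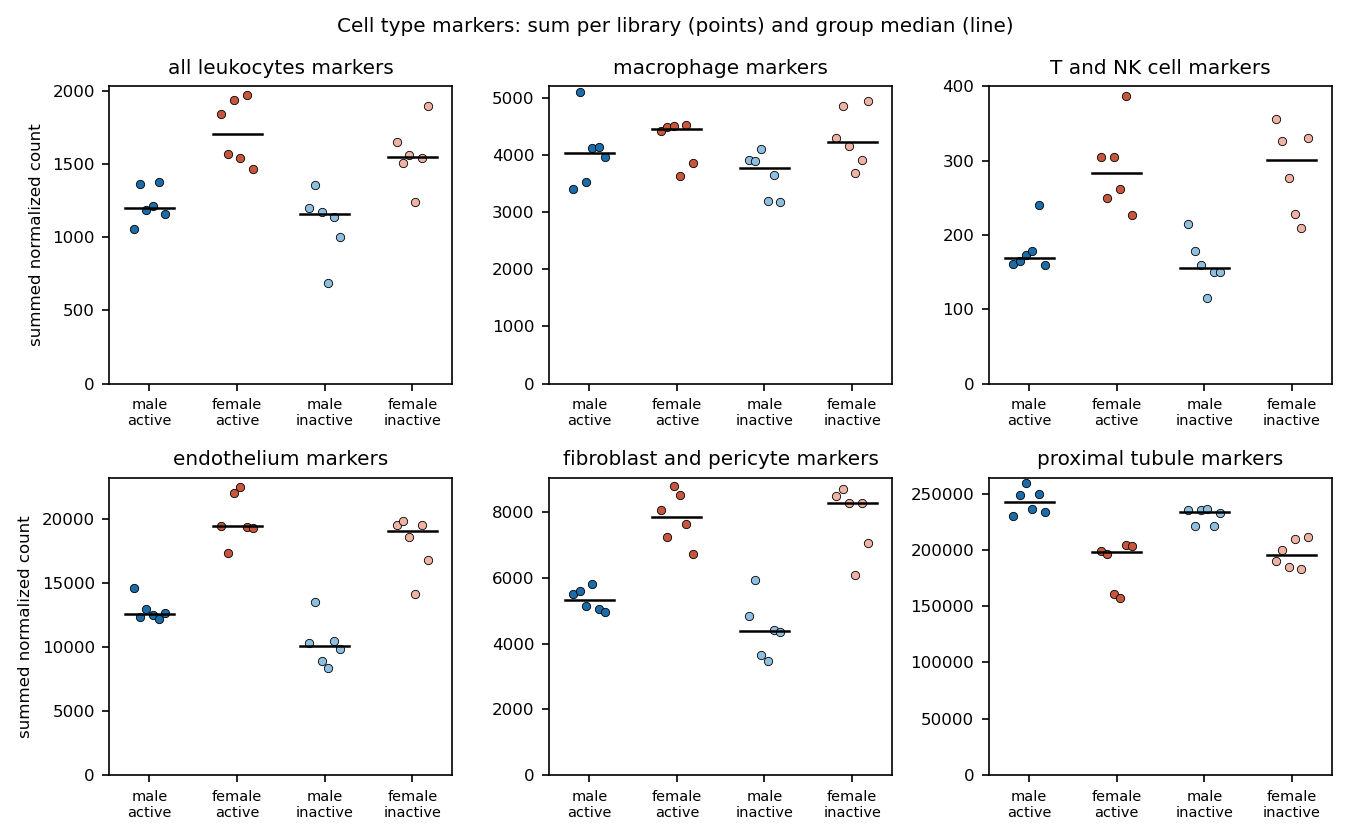
Summed normalized counts of the markers of 6 cell types by library (points), with the group median as a line, in the order active males, active females, inactive males, inactive females. Endothelial sums of males lie below those of females in both periods, with medians of 12602 and 10067 against 19460 and 19072. Macrophage sums overlap, and proximal tubule sums are higher in males. Of the 5 proximal tubule markers in that sum, 2 were called higher and 3 lower in males in each period.

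Between the periods most members did not pass. In males 1 member was higher in the active period and 3 were lower, against backgrounds of 8.43% and 6.95% of tested genes. In females 1 was higher and 2 were lower, against 7.97% and 6.98%. These counts are close to or below the share of all genes. The median log2 fold, active over inactive, was -0.09 in males against 0.01 over all genes, and -0.13 in females against -0.00159. It was negative for 26 members in males (70.3%, against 47.3% of all genes) and for 31 in females (83.8%, against 50.3%).

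Rsad2 was the member that rose in the active period in both sexes. In active males it ran from 1129 to 1477, against 699.8 to 1075 in inactive males, and in active females from 2187 to 2896, against 1376 to 1990.2 in inactive females. The groups did not overlap in either sex, as for 2.28% of all genes in the higher direction in males and 4.40% in females, and no other member was so in that direction. In females no member lay apart in the lower direction, where 3.43% of genes did. The log2 fold of Rsad2 was 0.64 ± 0.10 in males (1.56-fold, adjusted p = 1.03e-04) and 0.64 ± 0.10 in females (1.56-fold, adjusted p = 4.96e-05). Its range over all settings and omissions was 0.59 to 0.72 in males and 0.60 to 0.70 in females.

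Cmpk2, a nucleotide kinase of mitochondria and the neighbouring coding gene of Rsad2 on chromosome 12, was not a member and was higher in the active period as well. It ran from 530.3 to 776 in active males, against 385 to 567 in inactive males, and from 979 to 1168 in active females, against 654 to 873 in inactive females. The groups overlapped in males and were apart in females, with log2 folds of 0.40 ± 0.10 (adjusted p = 0.00604) and 0.48 ± 0.10 (adjusted p = 7.98e-04).

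Irgm1 was lower in the active period in both sexes by a small margin. It ran from 1821 to 1915 in active males, against 1896 to 2389.5 in inactive males, and from 2081 to 2249.6 in active females, against 2241 to 2722 in inactive females. The ranges met at their ends, and the log2 folds were -0.21 ± 0.05 in males (adjusted p = 0.00721) and -0.18 ± 0.05 in females (adjusted p = 0.0155). The female call was lost without female inactive replicate 1 (log2 fold -0.16, adjusted p = 0.0514).

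The remaining calls were made in a single sex. Ifih1 ran from 420.4 to 614 with a median of 566 in active males, against 672 to 814 with a median of 698 in inactive males, without overlap, as for 2.01% of genes in the lower direction (log2 fold -0.42 ± 0.08, adjusted p = 7.03e-04). In females its log2 fold was -0.17 ± 0.08 (adjusted p = 0.170). Mx2 ran from 15.3 to 49.4 with a median of 40.3 in active males, against 42.5 to 80.7 with a median of 54.4 in inactive males (log2 fold -0.81 ± 0.24, adjusted p = 0.0196). It lost its call without male active replicate 3 or 5 or male inactive replicate 5, and with only the male groups fitted (adjusted p from 0.0509 to 0.0624). Parp9 ran from 573 to 756 with a median of 644 in active females, against 675 to 829 with a median of 816 in inactive females (log2 fold -0.30 ± 0.08, adjusted p = 0.00699), and had a log2 fold of -0.09 ± 0.08 in males.

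Leaving out a library changed which members passed in these comparisons. In females 5 members were lower without female inactive replicate 4, with Ifit3, Irf7 and Usp18 added (log2 folds -0.39, -0.45 and -0.53), and 1 without female inactive replicate 1. In males 2 were higher without male active replicate 1 or male inactive replicate 2, where Ifi44 was added (log2 folds 0.33 and 0.41).

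**Figure D4:**
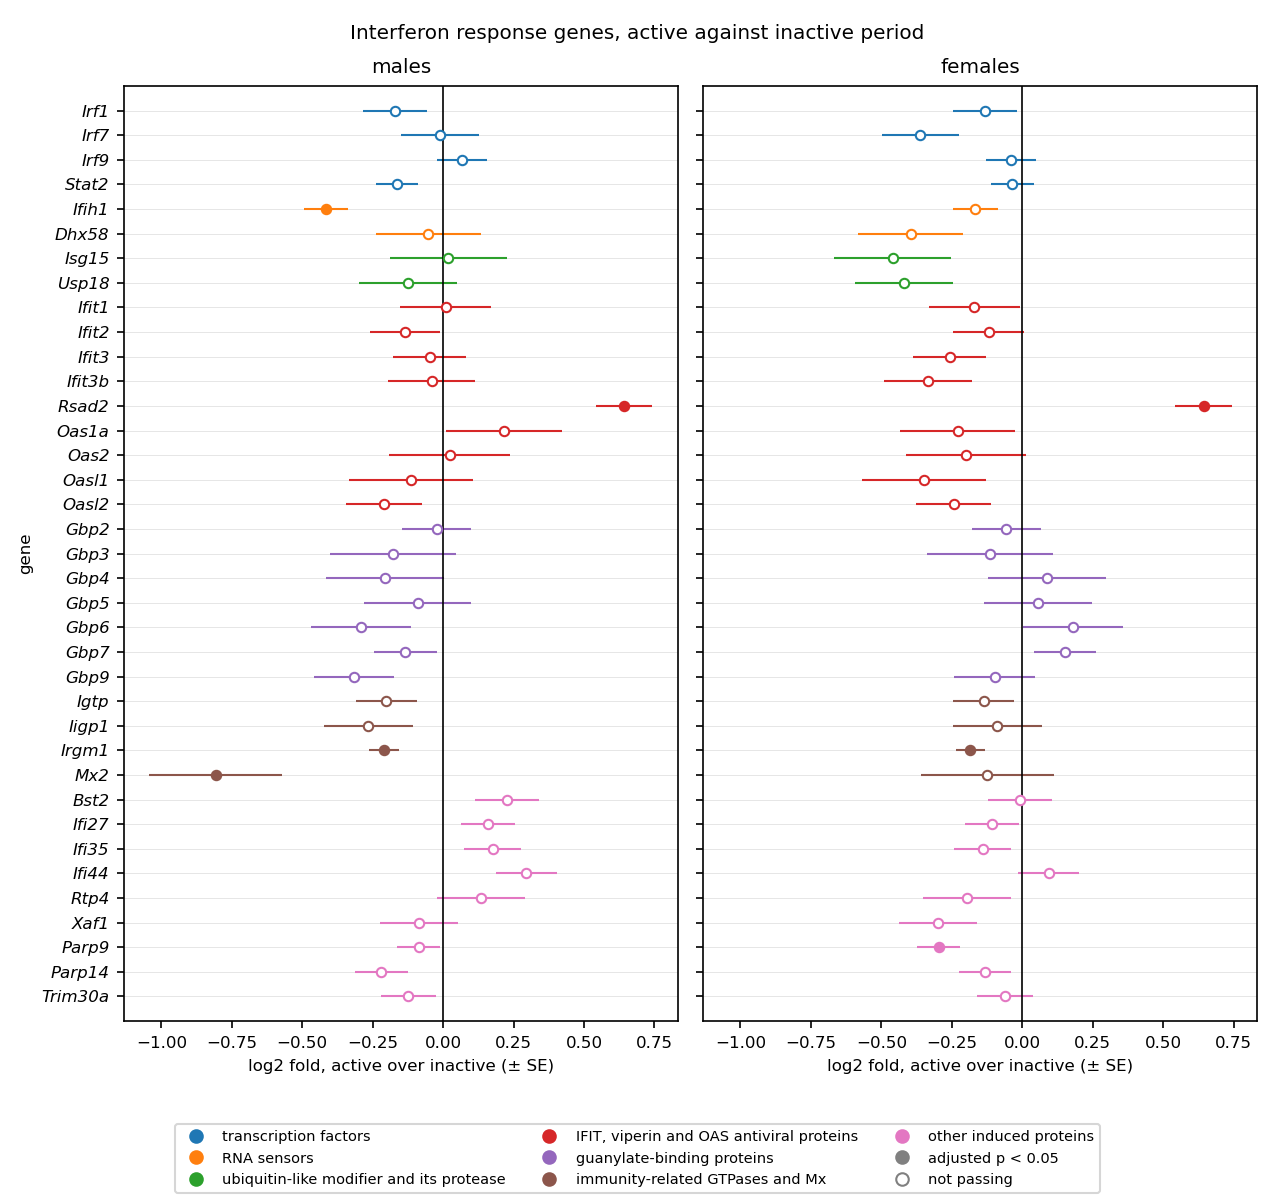
Log2 fold of each interferon response gene, active over inactive period, with bars of ± SE, in males (left) and females (right), coloured by role. Filled points passed an adjusted p of 0.05. Rsad2 stands alone at 0.64 on the right of both panels, and Ifih1, Irgm1 and Mx2 in males and Irgm1 and Parp9 in females are the filled points left of zero.

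Few genes of the other pathway lists were called between the periods. Calls were also few in the whole series, at 15.4% in males and 15% in females in either direction. As a background to the pathway and marker counts below, 8.43% of genes rose and 6.95% fell in active males. In active females the background was 7.97% and 6.98%. Of the further effectors, 3 were higher and 4 lower in active males and 1 was higher and 5 lower in active females. Herc6, a ligase that attaches Isg15 in mice, was lower in active males (log2 fold -0.44 ± 0.10), and Parp10 (-0.36 ± 0.09) and Oas1c (-0.71 ± 0.22) in active females. Irf2bp2, a corepressor that binds Irf2, was higher in the active period in both sexes (0.36 ± 0.09 in males and 0.41 ± 0.09 in females), as was Ticam1, an adaptor of Tlr3 (0.25 ± 0.08 and 0.28 ± 0.08). Irf3 was higher and Pias1 lower in active males (0.19 ± 0.06 and -0.18 ± 0.06). Equal totals ended the male calls of Ticam1 (adjusted p = 0.0747) and Irf3 (adjusted p = 0.0658). Among receptors Ifnlr1 was lower in active males (-0.49 ± 0.15) and Ifngr2 in active females (-0.20 ± 0.07), and none of 10 antigen processing genes passed in limma. Endothelial markers rose in the active period for 4 of 8 in males and for 3 of 8 in females, where 1 fell, and no macrophage marker passed in either sex. Of 5 leukocyte markers 1 was higher in active males and none passed in females. The part of these markers in the period changes was not tested.

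Whether the period change differed between the sexes was tested as an interaction, male change minus female change. No member passed in limma, edgeR or DESeq2, where 2.71% of all tested genes were called in limma, 1.41% higher and 1.3% lower, and 3 members had an unadjusted p under 0.05. The smallest p were those of Ifih1 (log2 difference -0.25 ± 0.11, adjusted p = 0.221) and Ifi35 (0.32 ± 0.14, adjusted p = 0.224), and the other was Mx2 (-0.68 ± 0.33, adjusted p = 0.266), named after its values were seen. The median difference over members was 0.03 against 0.01 over all genes. Of the other pathway genes 1 was called, Ifitm1, a membrane protein that hinders virus entry. It ran from 177 to 358 with a median of 257 in active males, against 81.2 to 203 with a median of 109.7 in inactive males, and from 226 to 394 with a median of 339 in active females, against 258 to 325 with a median of 298 in inactive females. Its log2 fold, active over inactive, was 1.09 ± 0.19 in males and 0.08 ± 0.19 in females, and the difference was 1.01 ± 0.27 (adjusted p = 0.0388).

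Some libraries lay high or low in their group for many members at once. Female inactive replicate 4 was the lowest of its group for 29 of 37 members, with a median log2 deviation from the group mean of -0.33, and 1 member lay above the mean, Gbp3 (0.38). Male inactive replicate 2 was the highest of its group for 18 members (median 0.26), and female active replicate 3 for 21 (median 0.20). Over all genes the median deviation of each library was between -0.00975 and 0.0183. Female inactive replicate 4 also had the lowest endothelial and leukocyte marker sums of its group (14158 and 1242), and male inactive replicate 2 the highest of its group (13540 and 1359). Neither sum of female active replicate 3 was the highest of its group. Its endothelial sum was 22012, against 22553 in replicate 4, and its leukocyte sum was 1938.2, against 1971.9 in replicate 5. The part of these sums in the deviations was not tested.

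The spread between libraries differed by gene. The median coefficient of variation over members was 14.9% in active males, 13.4% in active females, 18.3% in inactive males and 17.97% in inactive females. Irgm1 varied least in active animals, at 1.92% in males and 2.97% in females. In some female libraries Gbp3 lay on the other side of its group mean from most members. It deviated by -0.43 in female active replicate 3, where 30 members lay above the mean, and by 0.54 in female active replicate 6, where 12 did. In female inactive replicate 5 it deviated by -0.62, where 32 members lay above the mean.

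**Figure D5:**
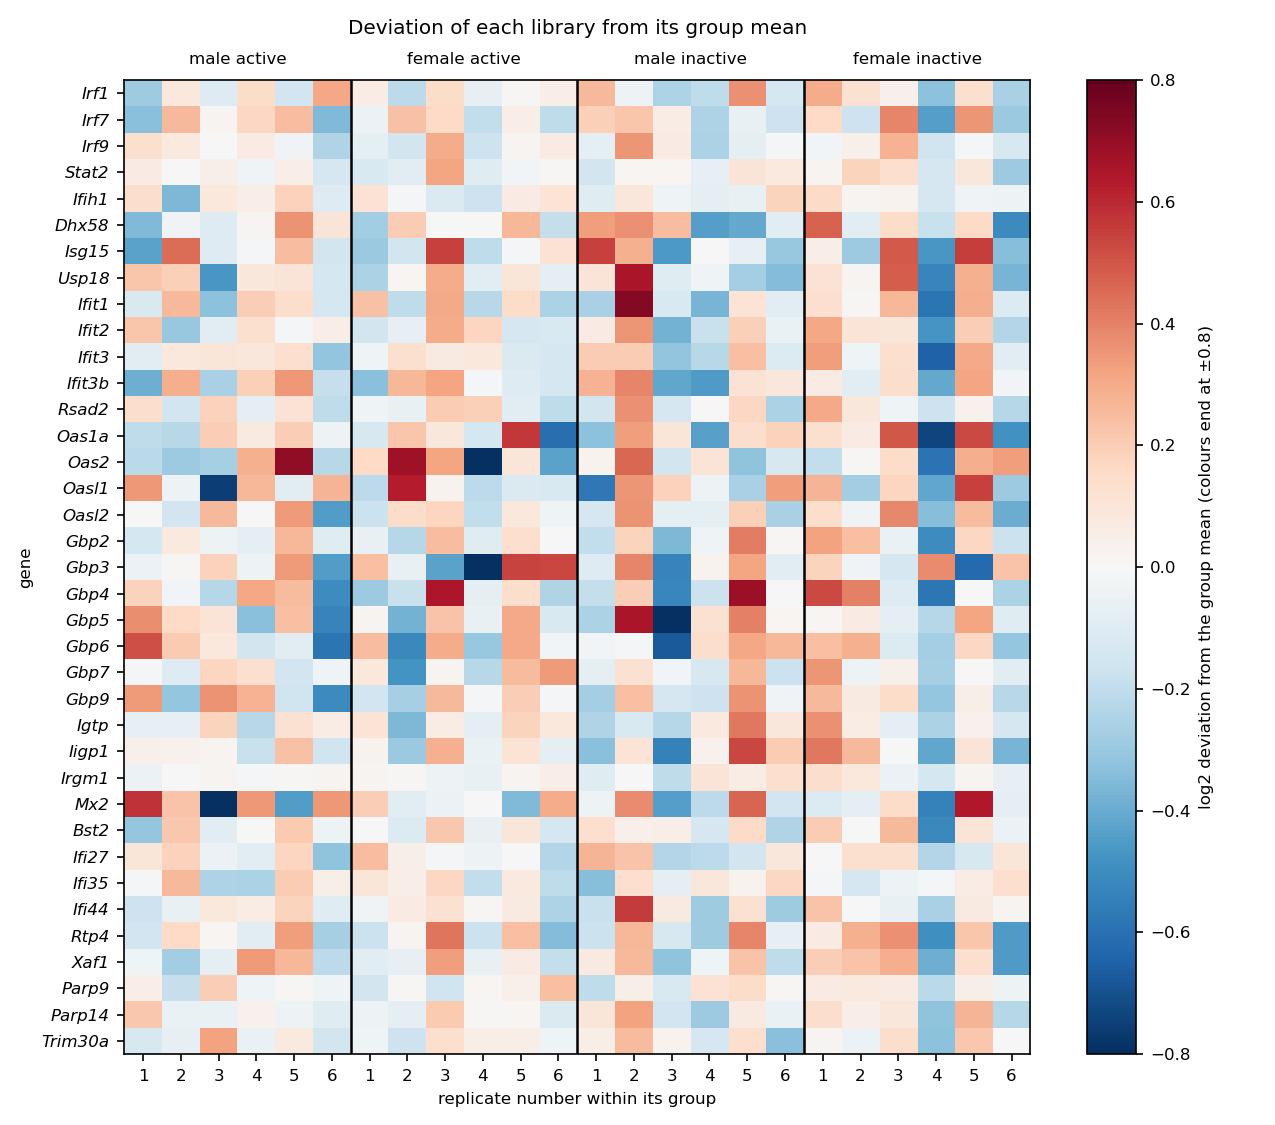
Log2 deviation of each interferon response gene (down the page) from its group mean in each of the 24 libraries (across), red above and blue below the mean, with colours ending at 0.8. The column of female inactive replicate 4 is below the mean for all genes except Gbp3, and that of male inactive replicate 2 is mostly red.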

How the data were processed

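Total RNA of mouse kidney was made into poly A selected libraries, per the labels' protocols. The deposited values are a signal, gene counts divided by the authors by a size factor per library, as the values show: every value above 0 was a whole read within 0.05 after division by the library's step. The submitters' processing notes name the build GRCm39, DESeq2 1.28.1, featureCounts, Subread 2.0.6 and Trim Galore 0.6.10. No order, annotation or strand setting is given in the sources used here.

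From these values, genes with a mean of at least 10 were tested on log2(normalized count + 1) with limma 3.58.1 in R 4.3.3, trended and robust, in 1 fit of 24 libraries with 20 residual degrees of freedom. Folds on this scale understate changes of low genes. Contrasts were male over female in each period, active over inactive in each sex, and their difference. P-values were adjusted by Benjamini and Hochberg per contrast over 17333 genes. Reads assigned to genes, as recovered from the values, numbered 31.04 to 39.3 M per library, and sequencing depth itself was not available. The method was tested on simulated data. Symbols came from a GENCODE annotation of GRCm38 (52073 of 56748 identifiers, holding 99.2% of the signal), used for names, exon lengths and neighbours, never to convert coordinates. Promoters are those of RefSeq, GRCm38.p6, searched on both strands.

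Alternatives were pseudocounts of 0.5 and 5, no filter, TMM, upper quartile or equal totals scaling, a fit of just the compared groups, library weights, a plain prior, edgeR 4.0.16 and DESeq2 1.42.0 on recovered reads, the title number as a block and each library left out. Genes were named by rule: per comparison the called members with the smallest p, up to 6, or 2 where none was called, up to 3 called genes per pathway list, and the promoters of up to 6 members with the smallest p. Igtp, Ifi35, Ifit2 and the other members are given by role. Equal totals for the pathway genes was chosen after seeing the data. The neighbour Cmpk2 is among the genes so named. A gene that this rule picks is not reported here. The members and lists were chosen with earlier results of these data known. The labels give no batch.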

Additional observations from a re-analysis of the deposited data

Results flagged for a closer look

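In 4 of the 148 combinations of a member and a group (2.70%), a single library stood apart from the other 5 by Dixon's criterion for 6 values. Chance alone flags about 1 in 20 such groups. Stat2 was at 1337 normalized counts in female active replicate 3, where the other libraries of that group ran from 987 to 1082. Usp18 was at 174 in male inactive replicate 2, against 86.8 to 119 in the others. Ifit1 was at 341 in the same library, against 158 to 221 in the others. Oasl1 was at 76.0 in female active replicate 2, against 42.1 to 49.7 in the others.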

How the results depend on the processing

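With equal totals, no member was called higher in active males, where 2 were as deposited, while 32 were lower in active and 37 in inactive males. Parp9 then turned to -0.00321 in the active and -0.22 in the inactive period, and Ifi35 to -0.26 in the inactive period. Of all genes, 15.2% were then higher and 50.9% lower in active males, and 11.8% and 52.2% in inactive males. In females, members lower in the active period numbered 4 by DESeq2 and 6 with library weights, against 2. In males, members higher in the active period numbered 2 with library weights, against 1. The cause of these shifts was not tested. The other settings moved no count of called members by over 1.5 times.

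With each library left out, members lower in active males than in active females numbered 27 to 29 and members higher 2 to 2, and members lower in inactive males 27 to 30, higher 0. Members lower in the active period numbered 1 to 5 in females and 2 to 4 in males, and members higher 1 to 1 and 1 to 2. The interaction gave 0 throughout.

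With the title number as a replicate block, 28 members were lower and 2 higher in active males, 30 lower and 0 higher in inactive males, and 0 passed the interaction. Libraries that share a number had weakly related deviations: over 12 pairs the correlation ran from -0.10 to 0.12, above 0.1 in 1 pair, and 4 libraries matched their own number best. Weak correlations cannot show whether the numbers mark shared handling. The periods share no numbers. Genes near the filter carry the largest counting error.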

Other observations

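Members with and without the core of the interferon-stimulated response element in the promoter window were both lower in males. The median log2 fold, male over female, was -0.51 in the active and -0.65 in the inactive period for the 16 members with the core, and -0.34 and -0.58 for the 9 without it. Of members with no match in the window, Ifit2 had log2 folds of -0.98 ± 0.13 and -0.96 ± 0.13. Rsad2, which holds the core, had -0.95 ± 0.10 in each period.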
